A study of Mus musculus with 9 samples.

Results

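*Hoxa7*, *Hoxa9*, *Hoxa10*, *Meis1*, *Pbx2*, *Pbx3* and *Pknox1* are 7 of the 55401 genes counted by RNA-Seq in *Hoxa9* and *Meis1* driven murine leukemia. They were chosen by gene name, with earlier results of these data known. HOX proteins are homeodomain transcription factors that bind DNA weakly alone and more firmly together with PBX and MEIS proteins, which belong to the TALE class of homeodomain proteins. *Hoxa7*, *Hoxa9* and *Hoxa10* lie side by side in the Hoxa cluster, which is active in hematopoietic stem and progenitor cells and is turned down as these cells mature. *Meis1* speeds up leukemia driven by *Hoxa9*, *Pbx2* and *Pbx3* encode PBX partners, and *Pknox1* encodes PREP1, a TALE protein that competes with MEIS1 for PBX.

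The cells in all groups were H9M cells, that is, Lin- bone marrow cells of C57BL/6-Ly5.1 mice transduced with a gammaretroviral vector that expresses murine *Meis1* and *Hoxa9* cDNAs from 1 transcript together with puromycin resistance. Each clone also carried a lentiviral FGB-D vector with its color code. Mixed clones were transplanted with helper bone marrow into lethally irradiated C57Bl6/J mice, whose ages are not given in the sources used here, and cKit+CD11b dim splenocytes were sorted by color code. The 3 pre-malignant libraries came from clones 33, 38 and 43 of 1 mouse, number 15, that was killed before disease. The 3 de novo expanded libraries came from the same clones in endpoint mice 17, 13 and 14, respectively, and the 3 stably expanded libraries all came from 1 clone, 34, in mice 13, 14 and 17. Clone and stably expanded group, and mouse 15 and pre-malignant group, therefore cannot be told apart. Columns of the tables could be tied to a group but not to a clone or mouse, so the numbers 1 to 3 given to libraries within a group name neither. Nothing else separates the libraries of a group into independent cultures, so p-values measure the spread between these libraries.

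Each library held 10379739 to 15551196 reads on genes, and levels are given as CPM, the reads of a gene per 1000000 reads on genes of its library. The sorted surface markers were expressed in every library, *Kit* at 142 to 287 CPM and *Itgam*, which encodes CD11b, at 27.8 to 85.7 CPM. Summed over 8 promyelocyte and neutrophil genes, the libraries held 8070 to 9512 CPM (pre-malignant), 3036, 4285 and 20530 CPM (de novo expanded 1, 2 and 3) and 11708 to 16366 CPM (stably expanded). De novo expanded library 3 stood apart from the other libraries of its group in this sum and in several genes below, and values without it are given where it decides a direction or a call. T cell genes reached no more than 3.01 CPM in sum over 5 genes, and 4 platelet genes summed to between 1.17 and 3.04 CPM, with no reads of *Ppbp* in any of the 9 libraries and none of *Pf4* in the de novo and stably expanded libraries. The sum of 5 B cell genes was 209 to 252 CPM in the pre-malignant, 72.4 to 201 CPM in the de novo expanded and 84.5 to 102 CPM in the stably expanded libraries. In bulk samples, fewer cells of a type and less RNA per cell cannot be told apart.

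The start regions of the neighbouring *Hoxa7*, *Hoxa9* and *Hoxa10* and of *Meis1* are shown first because these genes had the most and the fewest reads of the 7. Each sequence is RefSeq, GRCm38.p6, 300 bases from 250 bases before to 50 bases after the start, minus strand, and capitals mark CpG dinucleotides. They lie at chr6:52218524-52218823 (*Hoxa7*), chr6:52227321-52227620 (*Hoxa9*), chr6:52234890-52235189 (the more CpG-rich of the 2 listed for *Hoxa10*) and chr11:19018920-19019219 (*Meis1*). The *Hoxa7*, *Hoxa9* and *Hoxa10* windows printed here lie inside the genes as counted, downstream of their outermost annotated starts. Distances in the Hoxa cluster below are from the outermost start of *Hoxa9*.
Hoxa7: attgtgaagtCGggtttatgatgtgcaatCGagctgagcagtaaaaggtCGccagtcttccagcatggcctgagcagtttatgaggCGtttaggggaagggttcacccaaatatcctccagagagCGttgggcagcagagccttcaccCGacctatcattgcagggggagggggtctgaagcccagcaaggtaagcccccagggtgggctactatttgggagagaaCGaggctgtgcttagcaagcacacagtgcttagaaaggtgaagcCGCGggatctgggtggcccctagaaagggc
Hoxa9: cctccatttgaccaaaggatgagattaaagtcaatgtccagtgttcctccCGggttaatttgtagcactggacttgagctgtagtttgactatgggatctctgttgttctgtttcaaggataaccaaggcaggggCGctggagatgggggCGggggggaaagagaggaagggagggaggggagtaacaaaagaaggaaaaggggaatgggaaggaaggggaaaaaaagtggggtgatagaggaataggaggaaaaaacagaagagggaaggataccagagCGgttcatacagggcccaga
Hoxa10: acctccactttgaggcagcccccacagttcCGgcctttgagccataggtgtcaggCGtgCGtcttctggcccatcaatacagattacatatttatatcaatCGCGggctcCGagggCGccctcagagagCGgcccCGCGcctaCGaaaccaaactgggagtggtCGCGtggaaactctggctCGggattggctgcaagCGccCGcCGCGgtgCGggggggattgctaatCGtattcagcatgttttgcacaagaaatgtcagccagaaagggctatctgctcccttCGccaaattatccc
Meis1: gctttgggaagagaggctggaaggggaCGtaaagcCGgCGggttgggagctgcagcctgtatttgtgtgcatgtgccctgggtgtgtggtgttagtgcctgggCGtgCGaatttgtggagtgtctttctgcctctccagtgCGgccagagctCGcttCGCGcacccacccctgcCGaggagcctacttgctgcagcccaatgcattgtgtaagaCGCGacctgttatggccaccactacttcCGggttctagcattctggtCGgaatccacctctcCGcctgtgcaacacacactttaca
The *Hoxa9* stretch held 4 CpG, below the median of 7 over all 32851 promoters of this length, and *Hoxa7* held 9. The *Hoxa10* stretch held 21, and *Meis1* held 15. The most CpG-rich was *Pbx2* at chr17:34592009-34592308 with 29, more than in 87.1% of promoters, whereas the second *Hoxa10* stretch, at chr6:52240805-52241104, held 12. On both strands, the HOX-PBX sites TGATTTAT (found in 0.977% of all promoters) and TGATTGAT (0.746%) and the MEIS and PREP site TGACAG (19.2%) were in none of these 6 windows, and TATAAA (13.6%) was in the *Hoxa10* window printed here. *Pbx3* and *Pknox1* had no entry among the promoters.

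Of the Hoxa cluster genes, only *Hoxa9* was read at a high level. Its reads include those of the vector transcript, so they do not show how far the chromosomal gene itself was read. *Hoxa9* was read 7476, 5509 and 4668 times in pre-malignant libraries 1 to 3, 4142, 6898 and 10517 times in de novo expanded libraries 1 to 3 and 7834, 7360 and 4702 times in stably expanded libraries 1 to 3. *Hoxa7*, the next gene on the transcribed side, had 3, 6 and 2 reads in the pre-malignant, 5, 0 and 0 in the de novo expanded and 0, 0 and 0 in the stably expanded libraries. *Hoxa10*, the neighbour on the other side, had 0, 0 and 0 reads in the pre-malignant, 0, 0 and 1 in the de novo expanded and 1, 0 and 1 in the stably expanded libraries. A count of 0 allows up to 3 reads in a library, a limit that covers counting error only. With at most 6 reads in a library, *Hoxa7* and *Hoxa10* were below the filter on low values, and no fold change is given for them.

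*Hoxa9*, vector reads included, made up between 99.78% and 99.99% of its reads and those of 9 other Hoxa genes in every library. The 32 other annotated genes from *Hoxa2* to *Evx1* gathered 114 reads in all 9 libraries, against 59106 reads for *Hoxa9*. Of these genes 12 had no read, and none had more than 10 reads in a library. The 9 other Hoxa genes among them had 41 reads, of which 26 were in the pre-malignant, 11 in the de novo expanded and 4 in the stably expanded libraries. Per kb of exon and library this came to 0.198 reads, close to the 0.214 reads of 1731 olfactory and vomeronasal receptor genes, which these cells are not known to use. The 28 genes of the Hoxb, Hoxc and Hoxd clusters lay at 0.218 reads per kb and library. They had 141 reads, of which 87 were in the pre-malignant, 24 in the de novo expanded and 30 in the stably expanded libraries. Reads on receptor genes likewise ranged from 330 to 2618 per library, with the most in pre-malignant library 2 and the fewest in stably expanded library 1, and the part of this background in the reads on the other Hox genes was not tested.

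**Figure D1:**
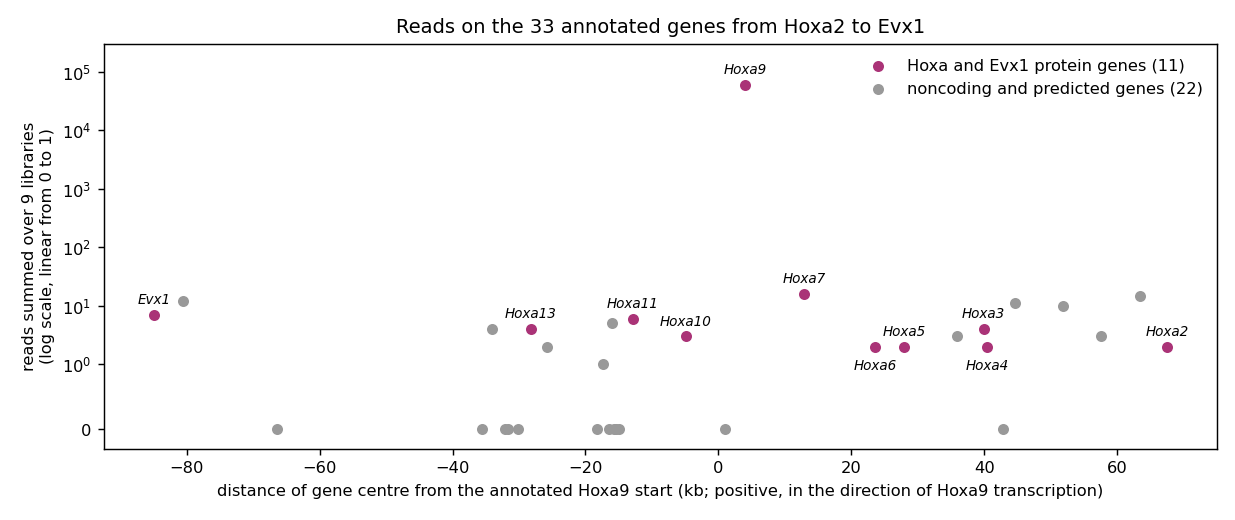
Reads summed over 9 libraries (log scale, linear from 0 to 1) against the distance of the gene centre from the annotated *Hoxa9* start (kb), for 33 genes from *Hoxa2* to *Evx1*, with 1 point per gene. *Hoxa9* stands at 59106 reads, which include those of the vector transcript, and *Hoxa7*, the next highest, at 16.

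The genes that flank the cluster were read. *Skap2*, a cytoplasmic adaptor protein gene, had 874 to 1861 reads and *Hibadh*, a gene of valine breakdown, had 270 to 517 reads per library. Within *Hoxa9*, at chr6:52223100-52231089 on the minus strand, the annotation also places all 85 bases of *Mir196b*, which had no read of its own. Its main product mmu-miR-196b-5p, at chr6:52230129-52230150, is a miRNA known to repress Hox transcripts. It is shown with its seed (bases 2 to 8) in capitals to locate it within the annotated gene.
mmu-miR-196b-5p: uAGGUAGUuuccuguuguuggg
Reads on exons shared by 2 genes may not have been counted for either, so the missing reads of *Mir196b* give no level of the miRNA.

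*Hoxa9* was high in all 3 groups. In CPM, *Hoxa9* stood at 567, 377 and 315 in the pre-malignant, 346, 444 and 687 in the de novo expanded and 511, 504 and 453 in the stably expanded libraries. Group means came to 420 ± 131, 492 ± 176 and 489 ± 31.8 CPM (SD, n = 3). The 3 groups overlapped, with the highest value in de novo expanded library 3 and the lowest in pre-malignant library 3. Vector and endogenous transcripts of *Hoxa9* and of *Meis1* cannot be told apart in counts per gene.

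*Meis1*, on the minus strand at chr11:18879817-19018985, had 910, 585 and 535 CPM in the pre-malignant, 573, 740 and 1099 CPM in the de novo expanded and 850, 874 and 790 CPM in the stably expanded libraries. The means were 677 ± 204, 804 ± 269 and 838 ± 43.1 CPM (SD, n = 3). As for *Hoxa9*, the highest library was de novo expanded 3 and the lowest pre-malignant 3, and the groups overlapped.

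*Meis1* and *Hoxa9* moved together from library to library. Their read ratio, which does not depend on how libraries are scaled, was 1.604, 1.551 and 1.697 in the pre-malignant, 1.657, 1.668 and 1.5997 in the de novo expanded and 1.663, 1.733 and 1.745 in the stably expanded libraries. Highest and lowest ratio differed 1.13-fold, whereas the highest and lowest library differed 2.18-fold in *Hoxa9* CPM and 2.05-fold in *Meis1* CPM. On the log2 scale the SD over 9 libraries was 0.056 for the ratio, with a median counting error of 0.022, against 0.36 for *Hoxa9* and 0.35 for *Meis1*.
The mean ratio was 1.62 ± 0.0739 in the pre-malignant, 1.64 ± 0.0366 in the de novo expanded and 1.71 ± 0.0444 in the stably expanded libraries (SD, n = 3). In two-sided exact permutation tests, for which 0.1 is the smallest p-value that 3 libraries against 3 allow, p was 0.7 for de novo expanded against pre-malignant and 0.2 for stably expanded against either other group. For scale, the coding sequences of *Meis1* and *Hoxa9* (longest in the GENCODE M1 transcripts, 1398 and 816 bases) have a length ratio of 1.71, and their exons (10532 and 5580 bases) one of 1.89. Every library lay under the exonic ratio, and 2 of 9, stably expanded 2 and 3, lay above the coding ratio.

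**Figure D2:**
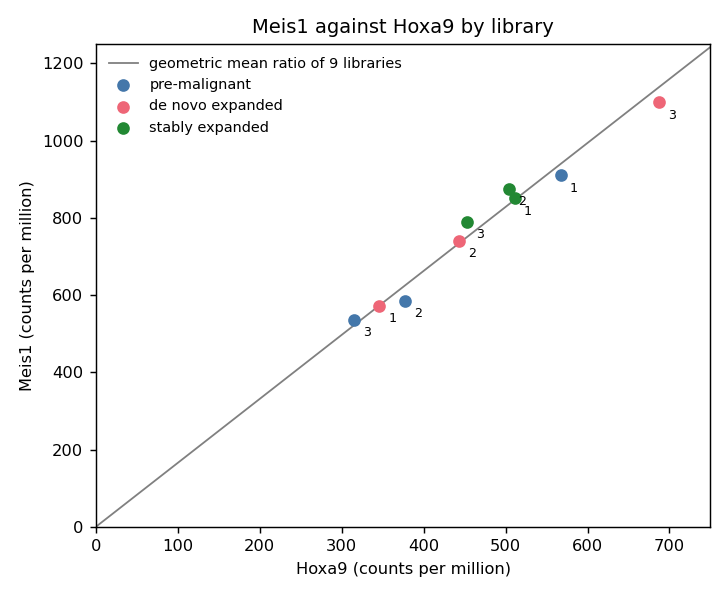
*Meis1* against *Hoxa9* in 9 libraries (both in CPM, points colored by group and numbered as in the text), with a line at their geometric mean ratio of 1.66. The points follow the line from pre-malignant library 3 (315 and 535 CPM) to de novo expanded library 3 (687 and 1099 CPM).

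The PBX partners were read at lower levels. *Pbx2*, on the plus strand at chr17:34591266-34597400, had 42.0, 39.2 and 42.0 CPM in the pre-malignant, 32.1, 28.3 and 40.8 CPM in the de novo expanded and 50.4, 34.6 and 38.3 CPM in the stably expanded libraries. De novo expanded libraries 1 and 2 were the lowest of all 9 and stably expanded library 1 the highest. *Pbx2* shares 227 exonic bases with *Gpsm3*, a gene on the same strand with 4684 reads in 9 libraries.
*Pbx3*, on the minus strand at chr2:34171457-34373142, had 29.7, 28.8 and 31.8 CPM in the pre-malignant, 21.6, 28.2 and 28.3 CPM in the de novo expanded and 27.7, 24.2 and 30.8 CPM in the stably expanded libraries. De novo expanded library 1 was the lowest, and the pre-malignant and stably expanded libraries overlapped.
*Pknox1*, on the plus strand at chr17:31564734-31607693, had 86.1, 76.9 and 79.3 CPM in the pre-malignant, 94.1, 86.3 and 95.1 CPM in the de novo expanded and 90.1, 90.2 and 89.8 CPM in the stably expanded libraries. All stably expanded libraries were above all pre-malignant libraries, and the de novo expanded libraries also lay above them in CPM, by a margin of 86.3 against 86.1.

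**Figure D3:**
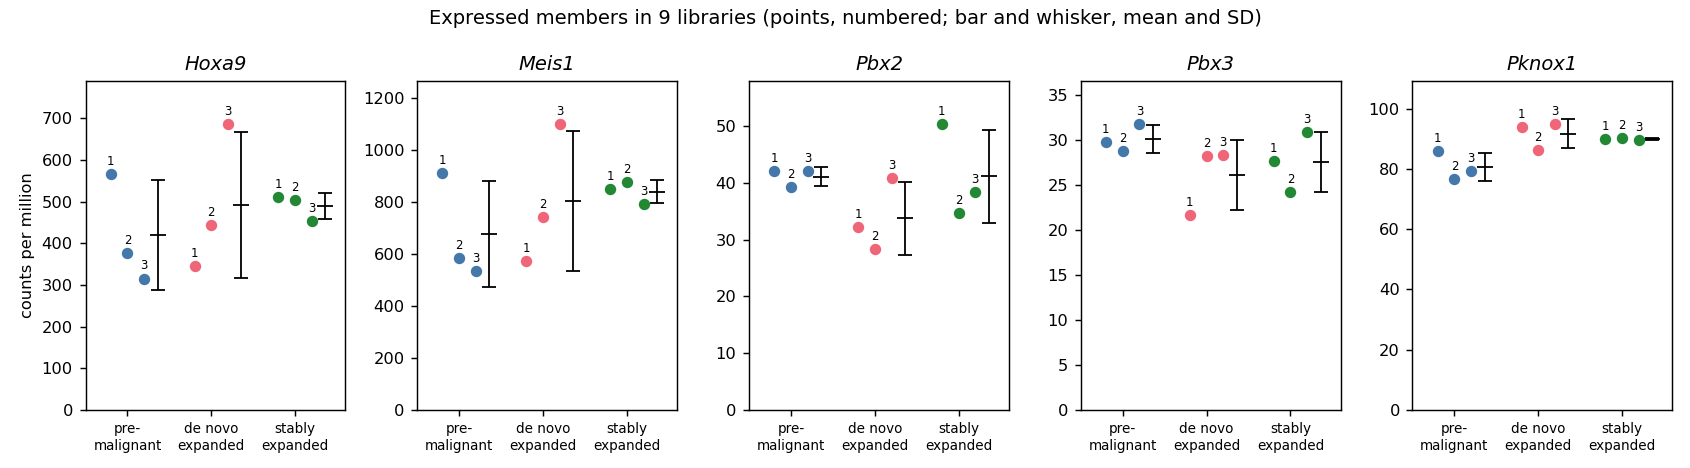
CPM of *Hoxa9*, *Meis1*, *Pbx2*, *Pbx3* and *Pknox1* in 9 libraries (numbered points by group; bar and whisker, mean and SD of 3 libraries; axes start at 0). The spread of *Hoxa9* and *Meis1* was widest in the de novo expanded group (SD 176 and 269 CPM) and narrowest in the stably expanded group (SD 31.8 and 43.1 CPM).

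Levels of different genes were set side by side per kb of exon. *Hoxa9* reached 83.7 ± 20.8 and *Meis1* 73.4 ± 17.6 CPM per kb (SD, n = 9), a spread in which both genes moved together. Within every library *Hoxa9* was the higher on this scale, as each read ratio lay under the exonic length ratio of 1.89. *Meis1* shares 896 exonic bases with *Gm16140* and 1029 with *Gm37818*, and reads there may not have been counted. Per kb of longest coding sequence the means were 572 and 553 CPM, and *Meis1* was the higher in 2 of 9 libraries. *Pbxip1*, which encodes a PBX-binding protein that keeps PBX from DNA, followed at 13.4 ± 2.43 CPM per kb. *Pknox1* lay at 12.6 ± 0.889 and *Pbx2* at 10.6 ± 1.77 CPM per kb, and these 3 were neighbours within their spread. *Tgif1*, a TALE repressor, lay at 5.46 ± 1.39, *Pbx4* at 5.05 ± 0.969 and *Pbx3* at 4.57 ± 0.522 CPM per kb.
Other TALE family genes were close to silent. *Meis2* had 24 reads in all 9 libraries, *Meis3* had 13 and *Pknox2* had 39. Of the summed level per kb of *Pbx2*, *Pbx3* and *Pbx4*, *Pbx2* made up 52.4%, *Pbx4* 24.98% and *Pbx3* 22.7% on average over 9 libraries. By group the *Pbx2* share was 51.2 ± 1.08% in the pre-malignant, 51.3 ± 6.18% in the de novo expanded and 54.6 ± 6.29% in the stably expanded libraries (SD, n = 3), differences within the spread.

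Between groups, 0 of the 5 members that passed the filter on low values (mean normalized count of at least 10) were called in any of 4 comparisons, where a call takes both 2-fold or more and an adjusted p-value, from limma with Benjamini-Hochberg adjustment over all genes tested, that stays under 0.05. Among all genes tested, 0% were called for de novo expanded against pre-malignant, 2.75% for stably expanded against pre-malignant, 0.00727% for stably against de novo expanded and 0.0573% for both leukemic groups against pre-malignant. The 95% intervals of all 20 member changes lay between 0.630-fold and 1.90-fold, so none reached a 2-fold change in either direction. Fold changes are on the scale of log2(normalized count + 1), and comparisons with the pre-malignant group share its libraries.

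The comparison of de novo expanded with pre-malignant clones addressed what changes when a minor clone expands. *Hoxa9* differed by a log2 fold change of 0.23 (SE 0.30, adjusted p = 0.807 in limma), with a 95% interval of 0.725-fold to 1.90-fold. *Meis1* differed by 0.25 (SE 0.28, adjusted p = 0.770), with an interval of 0.754-fold to 1.88-fold. Both directions came from de novo expanded library 3, as the log2 fold changes were -0.05 and -0.0095 when it was left out. *Pbx2* (-0.28), *Pbx3* (-0.20) and *Pknox1* (0.20) had adjusted p-values of 0.544, 0.652 and 0.503. At an unadjusted p-value under 0.05, 0 of 5 members passed, as did 11.3% of all genes. In normalized counts the groups overlapped in all 5 members, as they did in all but 19.1% of the genes tested.

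Stably expanded clone 34 was compared with the pre-malignant clones. *Hoxa9* differed by a log2 fold change of 0.27 (SE 0.18, adjusted p = 0.379 in limma) and *Meis1* by 0.35 (SE 0.17, adjusted p = 0.225), with 95% intervals of 0.918-fold to 1.58-fold and 0.985-fold to 1.65-fold. Without pre-malignant library 1, the highest of its group in both genes, these were 0.52 (adjusted p = 0.0373) and 0.59 (adjusted p = 0.0171), still under 2-fold and thus not called. *Pbx2* differed by -0.01 (adjusted p = 0.968) and *Pbx3* by -0.13 (adjusted p = 0.620). At an unadjusted p-value under 0.05, 0 of 5 members passed, beside 25.4% of all genes.
*Pknox1* differed by 0.16 (SE 0.10, adjusted p = 0.328) and was the only 1 of the 5 tested members whose groups did not overlap, higher in 3 of 3 stably expanded libraries. Of all genes tested, 30.7% did not overlap between these groups and 16.1% did so with higher values in the stably expanded clone. B cell genes, at 209 to 252 CPM in the pre-malignant and 84.5 to 102 CPM in the stably expanded libraries, and promyelocyte and neutrophil genes, at 8070 to 9512 and 11708 to 16366 CPM, also separated these groups. The sum of 6 erythroid genes was 17.7 to 34.7 CPM in the pre-malignant, 2.09 to 13.4 CPM in the de novo expanded and 1.45 to 23.0 CPM in the stably expanded libraries, so that the pre-malignant libraries lay above every de novo expanded one and overlapped the stably expanded ones. The sum of 6 macrophage genes was 213 to 281, 107 to 255 and 204 to 258 CPM in the same order. The 3 of them that passed the filter went different ways in the stably expanded clone. *Csf1r*, which encodes the receptor of macrophage colony-stimulating factor, was lower by 1.71 on the log2 scale (adjusted p = 0.00412 in limma). *Vcam1* had a log2 fold change of 2.03 (adjusted p = 0.0729) and *Adgre1* one of 0.06 (adjusted p = 0.821), and neither was called. The part of these 4 marker lists in the values of the members was not tested.

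Between stably and de novo expanded clones the log2 fold changes were 0.06 for *Hoxa9* (SE 0.24, adjusted p = 0.984 in limma), 0.12 for *Meis1* (adjusted p = 0.957), 0.29 for *Pbx2* (adjusted p = 0.893), 0.09 for *Pbx3* (adjusted p = 0.959) and -0.02 for *Pknox1* (adjusted p = 0.989). *Hoxa9* turned to -0.17 and *Meis1* to -0.10 without de novo expanded library 1. None of the 5 had an unadjusted p-value under 0.05, which 4.83% of all genes had, and all 5 overlapped, where 9.61% of all genes did not. For the 6 leukemic against the 3 pre-malignant libraries, *Pknox1* had a log2 fold change of 0.17 (SE 0.08) with an unadjusted p-value of 0.0475 and an adjusted p-value of 0.270 in limma, where 18.1% of all genes passed an unadjusted 0.05. The other 4 members had adjusted p-values from 0.49 to 0.65. The 6 leukemic libraries come from 3 mice that each gave both groups, which this fit does not take into account.

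**Figure D4:**
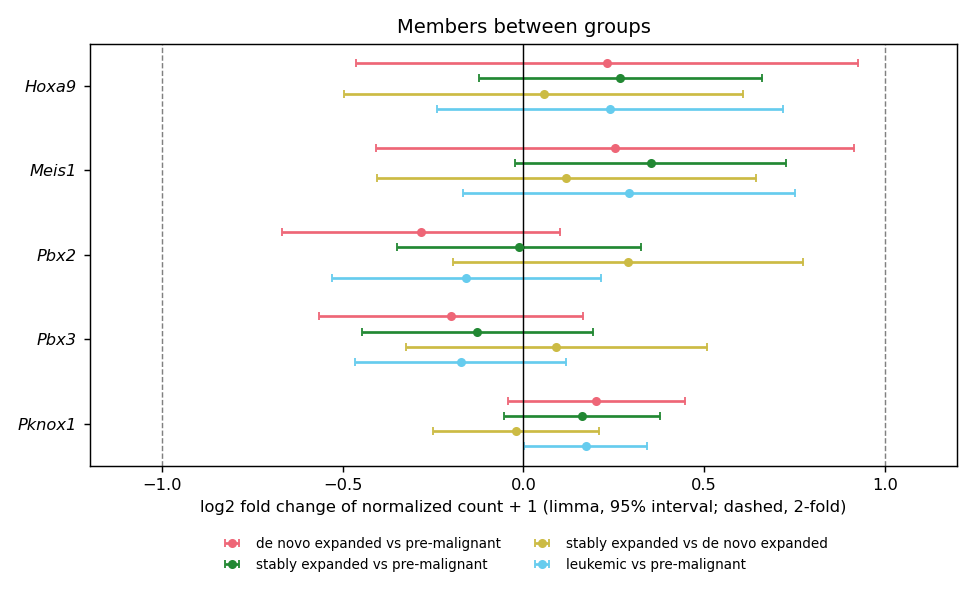
Log2 fold change of the normalized count + 1 (limma, points) with 95% intervals (whiskers) for the 5 members that passed the filter, in 4 comparisons; dashed lines mark 2-fold. All intervals lie inside the dashed lines, and *Pknox1* for leukemic against pre-malignant is the only 1 whose interval, 1.00 to 1.27-fold, leaves out 0 on the log2 scale.

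Of 7 other TALE genes and PBX regulators, 4 passed the filter, and 1 of these was called, for the stably expanded against the pre-malignant libraries, where 2.75% of all genes were. *Tgif2*, which encodes a TALE repressor, had 3.34, 3.42 and 2.57 CPM in the pre-malignant, 1.75, 4.05 and 0.457 CPM in the de novo expanded and 0.261, 0.822 and 0.771 CPM in the stably expanded libraries. It was lower in the stably expanded clone than in the pre-malignant clones in all libraries, by a log2 fold change of -2.32 (SE 0.51, adjusted p = 0.0229 in limma). With at most 63 reads in a library, this call was lost without any 1 pre-malignant library and without stably expanded library 1 (adjusted p up to 0.0903).
*Tgif1* stood at 44.8, 34.4 and 37.6 CPM in the pre-malignant and at 19.0, 27.9 and 23.3 CPM in the stably expanded libraries, a log2 fold change of -0.74 (adjusted p = 0.0260) that stayed under 2-fold. *Pbx4*, with 8.49 to 14.3 CPM, had adjusted p-values of 0.497 and 0.459 against the pre-malignant group in the de novo and stably expanded clones. *Pbxip1* had an adjusted p-value of 0.220 in the stably expanded clone. The median log2 fold change of the 4 genes was -0.37 for de novo expanded and -0.51 for stably expanded against pre-malignant, beside medians over all genes tested of 0.0079 and 0.0042.

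Of 15 genes known to respond to *Hoxa9* and *Meis1*, 13 passed the filter, and *Igf1* and *Trib2* did not. In clone 34 against the pre-malignant clones 2 were called higher and 1 lower, beside 2.75% of all genes called in either direction, and in the other pairwise comparisons 0 were called. *Dach1*, a nuclear cofactor of transcription, had 55.2, 29.1 and 22.2 CPM in the pre-malignant, 6.51, 9.90 and 105 CPM in the de novo expanded and 123, 84.8 and 117 CPM in the stably expanded libraries. It was higher in the stably expanded clone than in the pre-malignant clones by 1.70 on the log2 scale (SE 0.28, adjusted p = 0.00869 in limma). De novo expanded library 3 lay within the range of the stably expanded libraries, far above libraries 1 and 2 of its own group. Without that library, *Dach1* was called between stably and de novo expanded clones, with a log2 fold change of 3.74.
*Id2*, an inhibitor of basic helix-loop-helix factors, had 5.84, 6.71 and 6.01 CPM in the pre-malignant, 5.01, 3.73 and 11.7 CPM in the de novo expanded and 19.3, 18.4 and 10.98 CPM in the stably expanded libraries. It was higher in the stably expanded clone than in the pre-malignant libraries by 1.34 (SE 0.24, adjusted p = 0.0114 in limma). Against the de novo expanded libraries its log2 fold change was 1.38 (adjusted p = 0.891) with all libraries and 1.86 (adjusted p = 0.0089), past the threshold, without de novo expanded library 3. *Bcl2*, which protects from apoptosis, had 78.1, 82.8 and 107 CPM in the pre-malignant, 162, 134 and 15.3 CPM in the de novo expanded and 31.5, 67.7 and 36.8 CPM in the stably expanded libraries. It was lower in the stably expanded clone than in the pre-malignant libraries by 1.04 on the log2 scale (SE 0.23, adjusted p = 0.0247 in limma). This was just past 2-fold, and *Bcl2* was not called by edgeR or DESeq2, where the log2 fold change was -0.98 in both. The *Bcl2* call was also lost in 1 fit of all 9 libraries and without 5 of 6 single libraries, and with 1 library left out its log2 fold change ran from -1.36 to -0.82.

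*Flt3* and *Cd34* also separated de novo expanded library 3 from libraries 1 and 2, without being called. *Flt3*, a cytokine receptor gene and known target of *Hoxa9* and *Meis1*, had 109, 82.8 and 81.7 CPM in the pre-malignant, 222, 296 and 73.3 CPM in the de novo expanded and 39.9, 100 and 96.3 CPM in the stably expanded libraries. For de novo expanded against pre-malignant its log2 fold change was 0.92 (SE 0.46, adjusted p = 0.496 in limma), and 1.51, which was called, without de novo expanded library 3. *Cd34*, a progenitor marker, stood at 108, 164 and 46.6 CPM in the de novo expanded libraries, at 87.8 to 136 CPM in the pre-malignant and at 54.9 to 82.6 CPM in the stably expanded libraries. Between the last pair its log2 fold change was -0.76, with an adjusted p-value of 0.0261, and stayed under 2-fold. *Lmo2*, a LIM-domain factor gene of blood progenitors, likewise passed the p-value limit alone, with a log2 fold change of -0.33 (adjusted p = 0.0348). *Camk2d*, a calcium-dependent kinase gene with at most 6.62 CPM, had a log2 fold change of -1.22 for stably against de novo expanded (adjusted p = 0.891), and was called at -1.78 without de novo expanded library 3.
*Myb*, a transcription factor gene of progenitor cells, had 849 to 1542 CPM and *Cdk6*, a cell cycle kinase gene, 828 to 1144 CPM over the 9 libraries, with no call in any comparison. The median log2 fold change of the 13 genes was -0.06 for de novo expanded and -0.31 for stably expanded against pre-malignant.
Of 5 DNA-binding partners of HOXA9 in myeloid cells (*Cebpa*, *Spi1*, *Runx1*, *Stat5a* and *Stat5b*) all passed the filter and 0 were called in any comparison. Of all genes tested, 0% were called for de novo expanded against pre-malignant, 2.75% for stably expanded against pre-malignant, 0.00727% for stably against de novo expanded and 0.0573% for leukemic against pre-malignant. *Runx1*, a core factor of blood formation, had 250, 298 and 288 CPM in the pre-malignant, 253, 229 and 127 CPM in the de novo expanded and 188, 177 and 151 CPM in the stably expanded libraries. Its log2 fold change in the stably expanded clone was -0.70 (SE 0.10, adjusted p = 0.00583), under 2-fold. In the same comparison *Stat5b* had a log2 fold change of -0.29 (adjusted p = 0.131) and *Spi1*, which encodes PU.1, one of 0.20 (adjusted p = 0.285), and *Stat5a* had one of 0.20 (adjusted p = 0.505) for de novo expanded against pre-malignant.

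**Figure D5:**
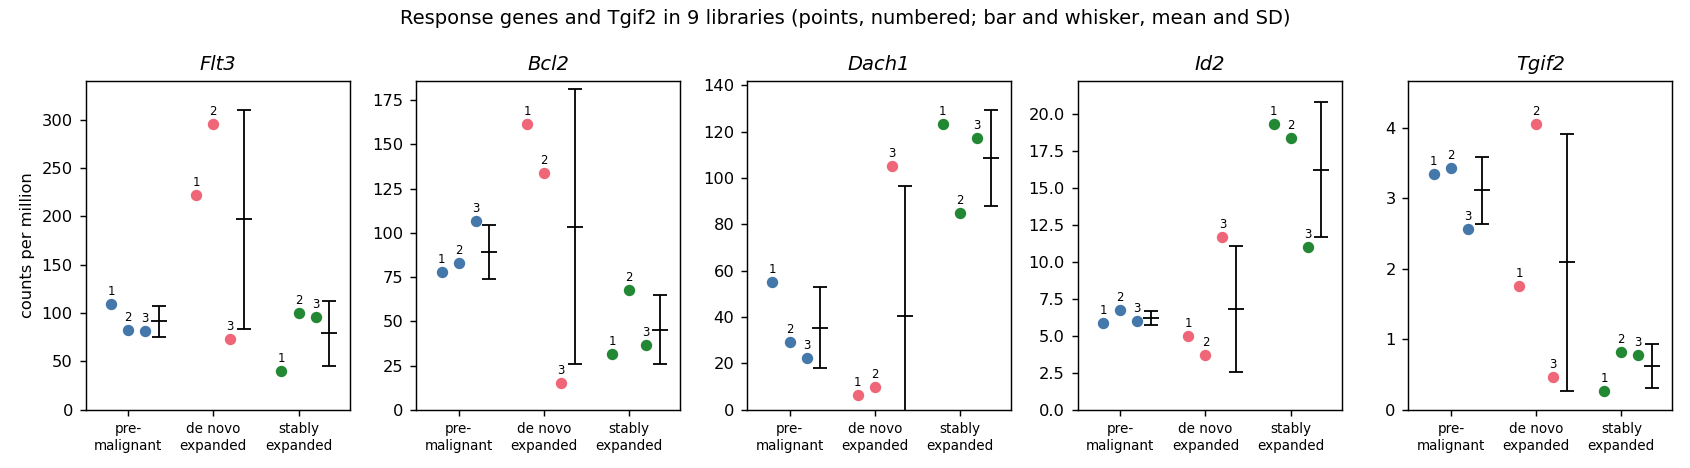
CPM of *Flt3*, *Bcl2*, *Dach1*, *Id2* and *Tgif2* in 9 libraries (numbered points by group; bar and whisker, mean and SD of 3 libraries; axes start at 0). De novo expanded library 3 lies on the other side of the pre-malignant libraries from libraries 1 and 2 in *Bcl2* (15.3 against 162 and 134 CPM) and *Dach1* (105 against 6.51 and 9.90 CPM).

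Beside these values, *Hoxa9* was 346 and 444 CPM in de novo expanded libraries 1 and 2 and 687 CPM in library 3, and *Meis1* was 573, 740 and 1099 CPM, while the promyelocyte and neutrophil genes summed to 3036, 4285 and 20530 CPM in the same libraries. The part of this difference in marker genes in the values of the members was not tested.

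As a description over 9 libraries, which come from 4 mice and 4 clones and share their depth and background, the gene most like *Hoxa9* among 13959 genes in log2(CPM + 1) was *Meis1* (Pearson r = 0.988), followed by *Tsr3* (0.958) and *Ly75* (0.953). For *Meis1* it was *Hoxa9*, followed by *Tsr3* (0.952) and *Crispld2* (0.951). The cofactors were less like them. Against *Hoxa9*, r was 0.546 for *Pknox1*, 0.256 for *Pbx2* and 0.0876 for *Pbx3*. Among the 3 genes most like *Pbx2* were *Mag* (0.935) and *Irgm2* (0.928). The 3 genes most like *Pbx3* were *Gm11696* (0.946), *Taf11* (0.928) and *Ccdc28b* (0.920), and those most like *Pknox1* were *Gm36948* (0.942), *Hadh* (0.927) and *Rfk* (0.925).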

How the data were processed

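RNA-Seq was analysed in 9 libraries, 3 per group. Per the paper's methods and the submitters' processing notes, total RNA of sorted cells went into stranded libraries (SMARTer Pico), and the authors trimmed reads with Trim Galore 0.6.4, aligned them with STAR 2.6.1d to GRCm38.p6 with GENCODE M25 and counted genes with featureCounts 1.6.4. The strand setting of the counting is not given in the sources used here. The authors deposited 3 tables, 1 per pairwise comparison, with counts divided by DESeq2 size factors, a signal from which whole reads were recovered (at least 99.99% of values whole within 0.05 reads, the same reads in both tables of a library). The deposited DESeq2 fold changes, statistics and p-values and mean counts were not used. Columns of other series numbered 0.

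CPM are recovered reads per 1000000 reads on genes (10379739 to 15551196 in a library), and counting limits cover counting error only. Main tests were limma 3.58.1 (R 4.3.3) with eBayes and a trend, on log2(normalized count + 1), two-sided, in genes with a mean of at least 10, with Benjamini-Hochberg adjustment. Calls needed an adjusted p-value under 0.05 and 2-fold. Leukemic libraries were compared on median-of-ratios factors over 9 libraries. The Meis1 to Hoxa9 read ratio was tested by exact permutation (scipy 1.17.1). Alternatives were pseudocounts of 0.1 and 5, no filter or a mean of at least 50, quantile normalization, median centring, edgeR 4.0.16, DESeq2 1.42.0, no fold limit, 1 fit of 9 libraries and leaving out each library. The fits were tested on simulated data. Coding lengths came from GENCODE M1 transcripts, sequences from RefSeq. Named are all members, the list genes called in a pairwise comparison, the 3 list genes with the lowest p in a comparison and the 3 genes most like each member. Skap2, Hibadh, Gpsm3, Myb, Cd34, Igf1, Trib2, Vcam1 and Adgre1 were named after their values were seen. A few genes of the design and the lists are not reported here. Members and lists were chosen with earlier results of these data known, and the comparison with olfactory and vomeronasal genes was chosen after seeing the data.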

Additional observations from a re-analysis of the deposited data

How the results depend on the processing

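No member was called under any alternative, and in 315 of 330 repeats of the members' fold changes the direction was the same. The remaining 15 reversed, none past the threshold, and were small. For stably against de novo expanded, *Hoxa9* turned to -0.0049 with DESeq2 and -0.00188 with edgeR, and for stably expanded against pre-malignant *Pbx2* turned to 0.0077 and 1.16e-05. Leaving out 1 library each, *Hoxa9* ranged from -0.0502 to 0.48 (de novo expanded against pre-malignant) and from -0.17 to 0.33 (stably against de novo expanded), *Meis1* from -0.0095 to 0.49 and from -0.10 to 0.38, *Pbx2* from -0.17 to 0.12 (stably expanded against pre-malignant), and, for stably against de novo expanded, *Pbx3* from -0.0421 to 0.20, *Pknox1* from -0.0691 to 0.0134, *Pbxip1* from -0.0230 to 0.47 and *Runx1* from -0.48 to 0.0068. *Stat5b* ranged from -0.23 to 0.0269 for de novo expanded against pre-malignant. The cause was not tested. The *Dach1*, *Id2*, *Bcl2* and *Tgif2* calls were lost in 1 fit of all 9 libraries, and the *Bcl2* call also without 5 of 6 single libraries. All genes called numbered 0 for de novo expanded against pre-malignant (1597 at an unadjusted p-value under 0.05), 42 by DESeq2, 5 with no filter or in 1 fit, and 214 without de novo expanded library 3. For stably expanded against pre-malignant they numbered 384, 1110 with no fold limit, 6 in 1 fit and 206 to 452 with 1 library left out. For stably against de novo expanded they numbered 1, 29 by DESeq2, 508 without de novo expanded library 3 and 0 without any 1 stably expanded library. For leukemic against pre-malignant they numbered 8, 107 by DESeq2, 22 with no fold limit and 3 to 13 with 1 library left out. No label ties a column to a clone or mouse, and the libraries were not paired. Differences between clones therefore stay within the spread of the pre-malignant and of the de novo expanded group. The stably expanded libraries all came from the same clone, so in comparisons with them the clone cannot be told apart from the group.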
